A study of Homo sapiens with 6 samples.

Results

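miR-101 and miR-128 are each made from a pair of hairpins at separate places in the human genome. In both families the hairpins give the same 3p arm, the mature strand cut from the 3′ side of the stem, but different 5p arms. The arms were taken by name: hsa-miR-101-3p, hsa-miR-101-5p, hsa-miR-101-2-5p, hsa-miR-128-3p, hsa-miR-128-1-5p and hsa-miR-128-2-5p. The table of 1000 mature miRNAs lists 5 of these 6 arms, and hsa-miR-128-2-5p was not analysed here. All 5 listed arms passed the filter on low counts and were among the 826 miRNAs tested.

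The libraries came from untreated HEK 293T cells, which are a transformed line of human embryonic kidney. The 3 ΔTUT4/7 libraries were made from 1 double knockout strain of TENT3A and TENT3B, the genes of the terminal uridylyltransferases TUT4 and TUT7, and the 3 wild type (WT) libraries from cells with both genes intact. The knockout cells came from another laboratory, and the sources used here do not say that the WT cells were its parental stock, so the deletion and other differences between the stocks cannot be told apart. The labels call the libraries of a strain biological replicates 1 to 3.

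Mature miRNAs are cut from a stem-loop precursor by DICER, and as a rule one arm of the stem is kept in an Argonaute protein as the guide while the other is degraded. TUT4 and TUT7 add uridines to the 3′ ends of precursor and mature miRNAs, which can mark them for decay or, as a single uridine, prepare the precursors called group II for DICER. miR-101-3p is known as a guide that represses the histone methyltransferase EZH2, and miR-128-3p as a guide abundant in neurons. A 5p arm that only one hairpin makes reads out that hairpin, whereas a shared 3p arm is the output of both hairpins together. The question was therefore which hairpin the shared arm followed when the strains were compared.

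The mature arms are shown first because the sequence decides what a read can tell about its hairpin. They were taken from RefSeq (GRCh38.p14), which matched all 6 names, and capitals mark the seed, bases 2 to 8, which pairs with target mRNAs.
miR-101-3p: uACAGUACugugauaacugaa
miR-101-5p: cAGUUAUCacagugcugaugcu
miR-101-2-5p: uCGGUUAUcaugguaccgaugc
miR-128-3p: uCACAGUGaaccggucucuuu
miR-128-1-5p: cGGGGCCGuagcacugucugaga
miR-128-2-5p: gGGGGCCGauacacuguacgaga
The 5p arms of miR-101 carry different seeds and have 16 of 21 aligned positions in common. The 5p arms of miR-128 share the seed GGGGCCG and have 17 of 23 positions in common. The families are not related in their 3p arms, which match at 9 of 20 aligned positions and have different seeds. The miR-101 arms have a GC content of 33.3% (miR-101-3p), 45.5% (miR-101-5p) and 50% (miR-101-2-5p). miR-128-3p has 47.6% and miR-128-1-5p, the most GC-rich listed arm, 65.2%.

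The hairpins of each family differ in their flanks, loop and 5p arm and agree over the whole 3p arm, and capitals mark both mature arms in the following RefSeq hairpins.
MIR101-1: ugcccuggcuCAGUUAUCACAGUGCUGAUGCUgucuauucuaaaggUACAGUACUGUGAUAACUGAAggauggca
MIR101-2: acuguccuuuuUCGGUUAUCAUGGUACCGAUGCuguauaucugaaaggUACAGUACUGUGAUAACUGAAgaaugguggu
MIR128-1: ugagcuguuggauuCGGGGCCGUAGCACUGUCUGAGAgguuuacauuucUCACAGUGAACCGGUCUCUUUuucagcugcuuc
MIR128-2: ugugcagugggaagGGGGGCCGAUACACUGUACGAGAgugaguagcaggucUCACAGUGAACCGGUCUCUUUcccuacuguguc
On GRCh38.p14, MIR101-1 lies at chr1:65058434-65058508 on the minus strand, in an intron of JAK1, a kinase of cytokine signalling transcribed from the same strand. MIR101-2 lies at chr9:4850297-4850375 on the plus strand, in an intron of RCL1 on that strand, and overlaps an exon of a long noncoding RNA (ENSG00000228165) on the opposite strand. MIR128-1 lies at chr2:135665397-135665478 on the plus strand in an intron of R3HDM1. MIR128-2 lies at chr3:35744476-35744559 on the plus strand in an intron of ARPP21. Neither family has a hairpin in the study's list of 45 group II hairpins. The hairpin of miR-3671 lies within 10 kb of MIR101-1, and miR-3671 was not analysed here.

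The authors trimmed the reads to 18 nt, which limits what the 3p arms can show. The first 18 bases of miR-101-3p occur at 2 places in hg38, its own hairpins, and so do those of miR-128-3p. The first 18 bases of each 5p arm occur at 1 place, and no listed arm shares them with another miRNA. A read of a 5p arm therefore belongs to 1 hairpin, while no read of a 3p arm can be assigned. The table gives each shared arm a single row, placed at MIR101-1 on chromosome 1 and at MIR128-1 on chromosome 2. The authors annotated the reads with a deduplicated set of mature miRNAs. The sources used here do not say how reads that fit 2 loci were reported, or whether reads placed at the other hairpin were counted. The levels of the 3p arms against the 5p arms carry this limit.

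Mature miRNA counts totalled 4338558 in the shallowest library and 7967606 in the deepest, and levels are given as counts-per-million values (CPM) with that total as the base. let-7 miRNAs and miR-98 together made up 19.2% to 19.7% of each ΔTUT4/7 total and 5.57% to 6.36% of each WT total. A larger share of these miRNAs lowers the CPM of every other miRNA by construction, and values without them are given where this changed a direction. Libraries of the same strain differed by more than counting error (chi-square over degrees of freedom 11.9 to 49.9 in ΔTUT4/7 and 92.8 to 266 in WT), so none was counted as a repeat deposit. TUT4 and TUT7 are not measured by mature miRNA counts, and the strain labels could not be checked with them.

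In the miR-101 family, both hairpin-specific 5p arms rose in ΔTUT4/7 cells, while the change of the shared 3p arm did not pass the test. miR-101-2-5p, the product of the chromosome 9 hairpin, rose 2.70-fold, miR-101-5p, the product of the chromosome 1 hairpin, rose 2.04-fold, and miR-101-3p was at 1.38-fold. In the miR-128 family, the abundant miR-128-3p was 1.15-fold lower and miR-128-1-5p was 1.36-fold higher in ΔTUT4/7, and neither passed. The strains were compared with the quasi-likelihood test of edgeR, Benjamini-Hochberg adjusted over all tested miRNAs, and a miRNA was called at a fold change of at least 2 and an adjusted p under 0.05. By this rule 2 of the 5 arms were called, both higher in ΔTUT4/7, where 16.5% of all tested miRNAs were called higher and 13.6% lower.

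The miR-101-2-5p counts were 116, 128 and 120 in ΔTUT4/7 replicates 1, 2 and 3, which is 22.9, 26.6 and 25.6 CPM. In WT replicates 1, 2 and 3 they were 31, 61 and 58, which is 7.03, 7.66 and 13.4 CPM. All 3 ΔTUT4/7 libraries lay above all 3 WT libraries, and WT replicate 3 was the highest of the WT libraries. The means were 25.02 ± 1.94 CPM in ΔTUT4/7 and 9.35 ± 3.49 CPM in WT (SD, n = 3 each). The log2 fold change was 1.44 with a standard error of 0.26 (95% interval 0.87 to 2.00, adjusted p = 0.000897 in the edgeR fit). The call held in every alternative tried, including each library left out in turn, with log2 fold changes between 1.28 and 1.76.

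miR-101-5p had 53, 65 and 77 counts in ΔTUT4/7 replicates 1, 2 and 3, or 10.4, 13.5 and 16.4 CPM. In the WT replicates it had 31, 30 and 42 counts, or 7.03, 3.77 and 9.68 CPM. The ΔTUT4/7 libraries again lay above the WT libraries, but ΔTUT4/7 replicate 1 and WT replicate 3 were close. The means were 13.5 ± 2.99 CPM and 6.82 ± 2.96 CPM (SD, n = 3 each). The log2 fold change was 1.02 with a standard error of 0.33 (95% interval 0.30 to 1.75, adjusted p = 0.0243 in the edgeR fit), just past the 2-fold limit. This call was lost without WT replicate 2 (log2 fold change 0.69, adjusted p = 0.0913), without ΔTUT4/7 replicate 2 (1.01, adjusted p = 0.0575) and without ΔTUT4/7 replicate 3 (0.86, adjusted p = 0.0836). With RLE factors (0.98) and with limma on log2(CPM + 1) (0.94) it fell just under the 2-fold limit.

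The shared arm miR-101-3p had 63, 68 and 72 counts in ΔTUT4/7 replicates 1, 2 and 3, or 12.4, 14.1 and 15.4 CPM. In WT replicates 1, 2 and 3 it had 56, 73 and 38 counts, or 12.7, 9.16 and 8.76 CPM. Here the strains overlapped in CPM over the full totals, since WT replicate 1 lay above ΔTUT4/7 replicate 1. They did not overlap over totals without let-7 and miR-98. The means were 14.0 ± 1.48 CPM in ΔTUT4/7 and 10.2 ± 2.16 CPM in WT (SD, n = 3 each). The log2 fold change of 0.46 had a standard error of 0.23 and a 95% interval from -0.05 to 0.97 (adjusted p = 0.124 in the edgeR fit), an interval that leaves room for no change and for almost a doubling.

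miR-128-3p was by far the most abundant of the arms, with 20801, 20136 and 19681 counts in ΔTUT4/7 replicates 1, 2 and 3, or 4100, 4187 and 4198 CPM. In WT replicates 1, 2 and 3 it had 20099, 39925 and 20770 counts, or 4555, 5011 and 4787 CPM. All ΔTUT4/7 libraries lay below all WT libraries by a small margin in CPM over the full totals. The means were 4161 ± 53.7 CPM in ΔTUT4/7 and 4785 ± 228 CPM in WT (SD, n = 3 each). Over totals without let-7 and miR-98 the strains overlapped. The log2 fold change was -0.20 with a standard error of 0.11 (95% interval -0.45 to 0.05, adjusted p = 0.161 in the edgeR fit). Its direction turned when let-7 and miR-98 were left out of the library totals, to a log2 fold change of 0.02 (adjusted p = 0.889). That scaling moved the median over all tested miRNAs by 0.22 on the log2 scale, from 0.01 to 0.23, and relative to the median miR-128-3p was at -0.21 in the fit with the full totals.

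The hairpin-specific miR-128-1-5p had 242, 216 and 289 counts in ΔTUT4/7 replicates 1, 2 and 3, or 47.7, 44.9 and 61.6 CPM. In WT replicates 1, 2 and 3 it had 174, 343 and 132 counts, or 39.4, 43.0 and 30.4 CPM. Every ΔTUT4/7 library lay above every WT library, although ΔTUT4/7 replicate 2 and WT replicate 2 were close. The means were 51.4 ± 8.96 CPM and 37.6 ± 6.50 CPM (SD, n = 3 each), and the log2 fold change was 0.44 with a standard error of 0.21 (95% interval -0.01 to 0.90, adjusted p = 0.0959 in the edgeR fit). With the full totals, 4 of the 5 arms had strains that did not overlap, where 58.4% of all tested miRNAs had such a separation. Which arms these were depended on the totals, since without let-7 and miR-98 miR-101-3p separated and miR-128-3p overlapped.

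**Figure D1:**
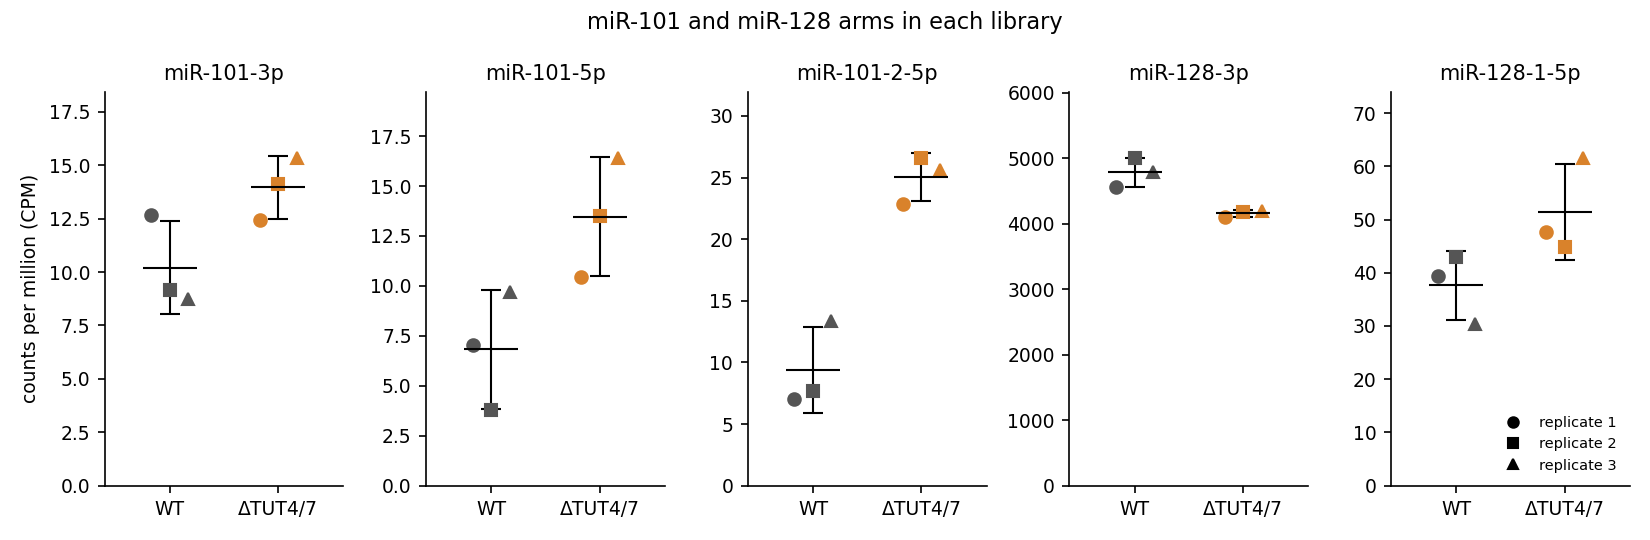
CPM of each arm (vertical axis, linear, from 0, with its own range in each panel) in the 3 WT (grey) and 3 ΔTUT4/7 (orange) libraries. Marker shapes give the replicate number, long bars the mean and short bars 1 SD. With these full totals the strains overlap for miR-101-3p alone, and miR-128-3p is the only arm whose ΔTUT4/7 libraries all lie below the WT libraries. Over totals without let-7 and miR-98, the strains separate for miR-101-3p and overlap for miR-128-3p.

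The order of the arms by level differed in one place between the strains. In WT, miR-128-3p came first, at rank 36 of the 1000 miRNAs by mean CPM, then miR-128-1-5p at rank 260. The 3 miR-101 arms followed at ranks 378 (miR-101-3p), 384 (miR-101-2-5p) and 416 (miR-101-5p), and their ranges overlapped. In ΔTUT4/7, miR-128-3p was at rank 37 and miR-128-1-5p at rank 240. There miR-101-2-5p, at rank 303, lay above both other miR-101 arms in every library, while miR-101-3p (355) and miR-101-5p (359) overlapped. miR-128-3p thus lay above its listed 5p arm in both strains, whereas miR-101-3p had the highest mean of the miR-101 arms in WT, with overlapping ranges, and lay below miR-101-2-5p in ΔTUT4/7. These levels are counts of reads and were not corrected for how well each sequence is captured in a library.

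The spread between libraries was set beside the error of counting alone. For miR-101-3p the coefficient of variation over the ΔTUT4/7 libraries was 10.6%, where counting alone gives 12.2%, and for miR-101-2-5p it was 7.75% against 9.08%. The hairpin-specific arms miR-101-5p and miR-128-1-5p exceeded counting error in ΔTUT4/7, with 22.2% against 12.4% for miR-101-5p and 17.4% against 6.34% for miR-128-1-5p. In WT miR-101-3p varied by 21.2%, miR-101-2-5p by 37.4%, miR-101-5p by 43.4% and miR-128-1-5p by 17.3%, against 13.9%, 14.7%, 17.5% and 7.09% from counting. miR-128-3p, with 19681 to 39925 counts in each library, varied by 1.29% in ΔTUT4/7 and 4.76% in WT, against 0.704% and 0.634% from counting. The spread was therefore larger than counting error for all 5 arms in WT and for 3 of the 5 in ΔTUT4/7. The counting errors here and the Clopper-Pearson intervals given for shares cover counting alone, and the sources used here do not say whether molecular identifiers were used, while the edgeR intervals rest on the spread between libraries.

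To see which hairpin the shared arm followed, each 3p arm was compared with its 5p arms within the libraries, where the scaling of a library falls out. The fit gave the difference between the log2 fold changes of both arms for each of 231 pairs of a 5p and a 3p arm of the same name, with the library as a block. Over all pairs, 18.6% passed an adjusted p of 0.05. Of the 3 pairs of the miR-101 and miR-128 families 0 passed in this edgeR fit or with limma. Before adjustment 2 of them had p under 0.05 in edgeR, where 69 of all 231 pairs did.

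The log2 fold change of miR-101-3p minus that of miR-101-2-5p was -1.002, a 2.00-fold shift of the ratio (standard error 0.36, 95% interval -1.79 to -0.22, adjusted p = 0.0708 in the edgeR fit). Against miR-101-5p its difference was -0.60 (standard error 0.38, 95% interval -1.43 to 0.23, adjusted p = 0.310 in the edgeR fit). By its value the shared arm was nearer to the product of the chromosome 1 hairpin, but the 5p arms themselves could not be told apart. The change of miR-101-2-5p exceeded that of miR-101-5p by 0.38 on the log2 scale, with a 95% interval from -0.42 to 1.18 (adjusted p = 0.447 over 14 pairs of copies, by edgeR's quasi-likelihood test, a comparison added after the data were seen). Of those 14 pairs of copies of the same arm, 64.3% passed. With these 6 libraries the shared arm of miR-101 could be assigned to neither hairpin.

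These differences depended on which WT libraries were kept. Without WT replicate 3, miR-101-3p differed from miR-101-5p by -1.004 (adjusted p = 0.0383) and from miR-101-2-5p by -1.36 (adjusted p = 0.00102), both past the threshold in the edgeR fit. Calls rose over the other miRNAs too, to 64 arm pairs without this library, against 43 of 231 with all 6 libraries. With any other library left out, both adjusted p values stayed above the threshold, and without WT replicate 1 and WT replicate 2 the differences shrank to -0.69 for miR-101-2-5p and -0.29 for miR-101-5p, respectively.

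The ratios in the single libraries show the same. miR-101-2-5p had 1.84, 1.88 and 1.67 counts per count of miR-101-3p in ΔTUT4/7 replicates 1, 2 and 3, and 0.554, 0.836 and 1.53 in the WT replicates. The strains did not overlap, but WT replicate 3 came close to the ΔTUT4/7 libraries. For miR-101-5p per miR-101-3p the ratios were 0.841, 0.956 and 1.07 in ΔTUT4/7 and 0.554, 0.411 and 1.11 in WT, where WT replicate 3 was the highest of all 6 libraries. Both 5p arms summed to 2.68, 2.84 and 2.74 per miR-101-3p in ΔTUT4/7 and to 1.11, 1.25 and 2.63 in WT. Thus 2 of the 3 WT libraries had nearly as much 3p arm as both 5p arms together, and the ΔTUT4/7 libraries fell within a narrow range above that.

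An exact 2-sided permutation test of these log2 ratios, 3 libraries against 3, gave p = 0.1 for miR-101-2-5p per miR-101-3p and for the summed 5p arms, the smallest p that this design allows. For miR-101-5p per miR-101-3p the exact p was 0.4. Over the 6 quantities so tested, the Benjamini-Hochberg adjusted exact p was 0.2 to 0.4. The mean ratio of the summed 5p arms was 2.75 ± 0.0791 in ΔTUT4/7 and 1.66 ± 0.843 in WT (SD, n = 3 each).

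The share of miR-101-2-5p in all miR-101 5p counts compares both 5p arms without the 3p arm and is uncorrected for capture. It was 68.6% (95% exact Clopper-Pearson interval 61.1% to 75.5%), 66.3% (59.2% to 73.0%) and 60.9% (53.7% to 67.8%) in ΔTUT4/7 replicates 1, 2 and 3. In the WT replicates it was 50% (37.0% to 63.0%), 67.0% (56.4% to 76.5%) and 58% (47.7% to 67.8%). The chromosome 9 hairpin gave at least as many 5p counts as the chromosome 1 hairpin in all 6 libraries. The means of 65.3% ± 3.96 in ΔTUT4/7 and 58.3% ± 8.52 in WT (SD, n = 3 each) gave an exact permutation p of 0.3, where 3 libraries against 3 cannot go below 0.1. The share in WT replicate 2 lay within the range of the ΔTUT4/7 libraries, so the strains overlapped.

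miR-128-3p had 86.0, 93.2 and 68.1 counts per count of miR-128-1-5p in ΔTUT4/7 replicates 1, 2 and 3, and 116, 116 and 157 in the WT replicates. All ΔTUT4/7 ratios lay below all WT ratios, with means of 82.4 ± 12.9 and 130 ± 23.9 (SD, n = 3 each) and an exact permutation p of 0.1, the smallest possible. In the fit over pairs the log2 fold change of miR-128-3p minus that of miR-128-1-5p was -0.65, a 1.57-fold shift (standard error 0.24, 95% interval -1.17 to -0.13, adjusted p = 0.0749 in edgeR). With the arm of the chromosome 3 hairpin not analysed here, the shared arm could be set beside the chromosome 2 hairpin only. The miR-128-3p ratio in WT replicate 3 again lay apart from the other WT libraries, through the lowest miR-128-1-5p level of the 6 libraries.

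Differences of this size between the arms of a miRNA were common in these libraries. The median size over the 231 pairs was 0.57 on the log2 scale. A larger difference was found in 20.8% of the pairs than for miR-101-3p with miR-101-2-5p, in 40.7% than for miR-128-3p with miR-128-1-5p, and in 46.3% than for miR-101-3p with miR-101-5p.

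**Figure D2:**
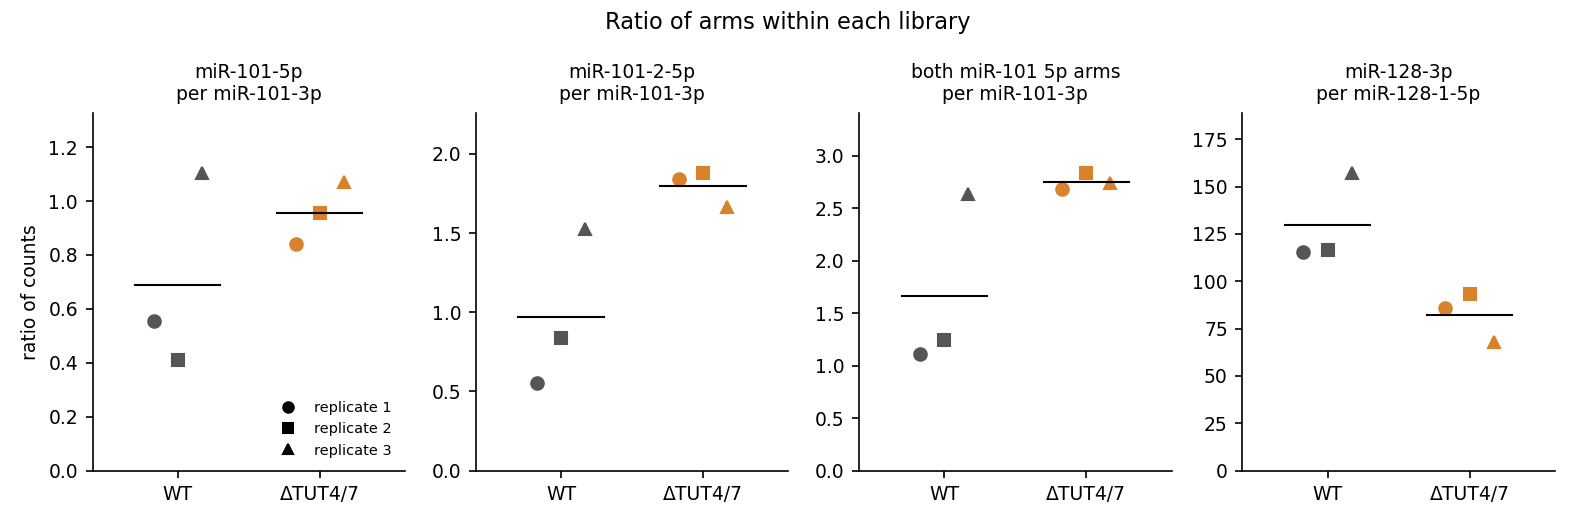
Ratio of the counts of the named arms (vertical axis, linear, from 0) in each WT (grey) and ΔTUT4/7 (orange) library, with marker shapes for the replicate number and a bar at the mean of 3 libraries. In the 3 panels of miR-101 the WT replicate 3 (grey triangle) lies near or above the ΔTUT4/7 libraries, and the miR-128 ratio is lower in all ΔTUT4/7 libraries.

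**Figure D3:**
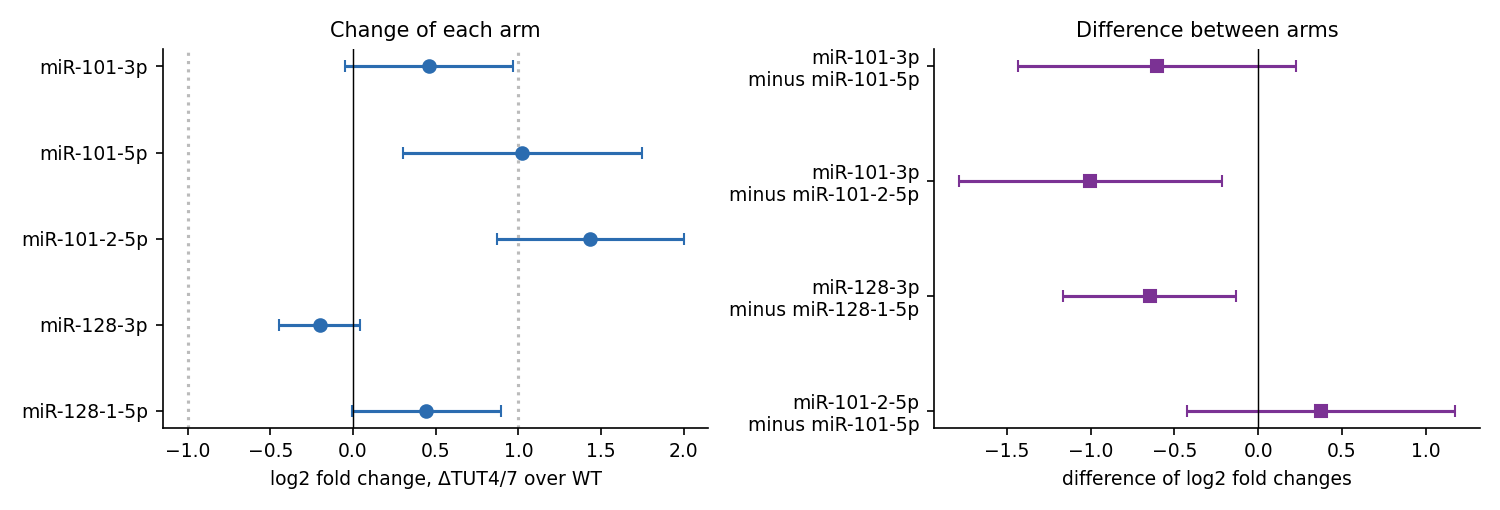
Left, log2 fold change of each arm in ΔTUT4/7 over WT with its 95% interval from edgeR, with dotted lines at a 2-fold change, and right, the difference between the log2 fold changes of the named arms with its 95% interval. The shared 3p arms lie left of their 5p arms. Before adjustment over all pairs, the intervals of miR-101-3p with miR-101-2-5p and of miR-128-3p with miR-128-1-5p do not reach 0. Of all 231 pairs, 69 had an unadjusted p under 0.05 in edgeR.

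miR-101 and miR-128 were set beside the other miRNAs with an arm shared by several hairpins, found by name, as a description without a test. There were 20 such shared arms. In 13 of them the log2 fold change of the shared arm was lower than that of every tested arm specific to 1 hairpin, miR-101-3p and miR-128-3p among them. Of the 14 with at least 2 specific arms tested, 9 lay below both, 4 between and 1 above. The gap was 0.57 for miR-101-3p and 0.65 for miR-128-3p. The median gap over all 20 shared arms was 0.31, with the 4 that lay between their specific arms entered as 0. Only miR-125b-5p, 1.07 below its specific arm, and miR-7-5p, 1.56 above it, lay outside by more than 1. By the mean over all 6 libraries the shared arm was the less abundant one in 6 of the 20, miR-101-3p among these, with 12.1 CPM against 17.2 CPM for miR-101-2-5p. This order came from the ΔTUT4/7 libraries (14.0 against 25.02 CPM), since in WT miR-101-3p was at 10.2 CPM and miR-101-2-5p at 9.35 CPM.

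**Figure D4:**
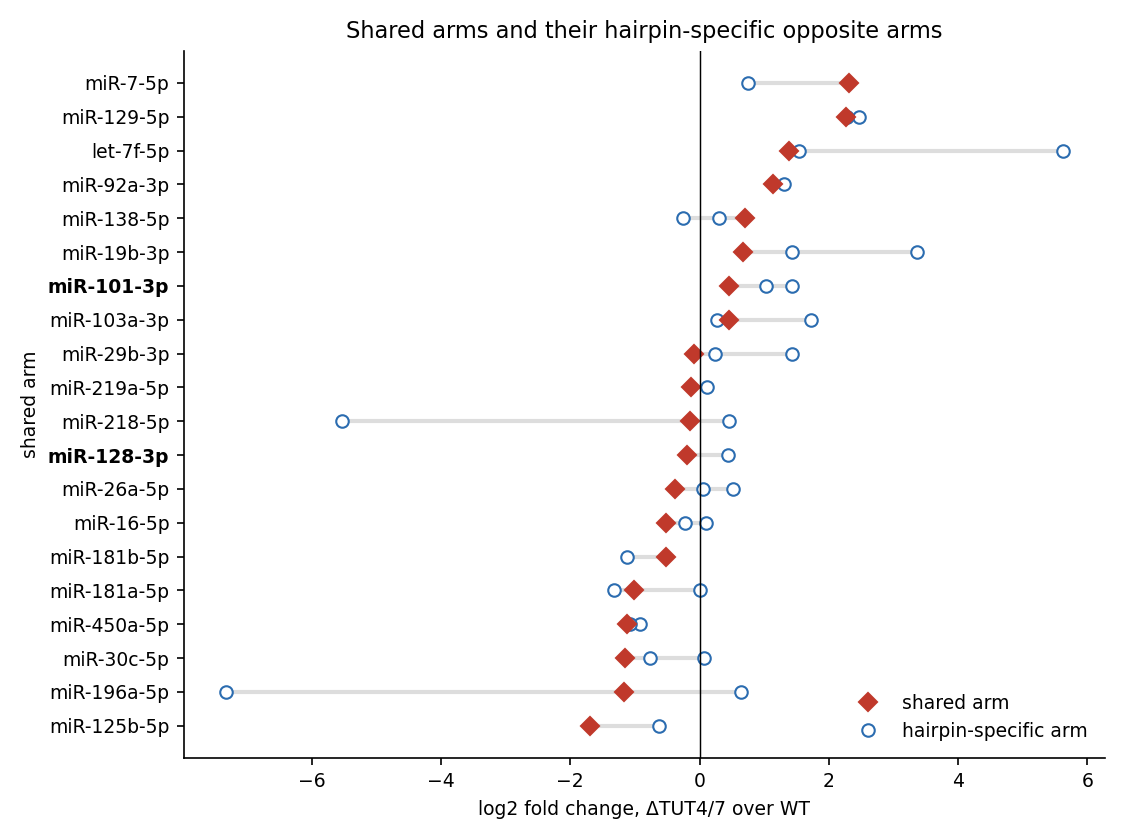
Log2 fold change in ΔTUT4/7 over WT (horizontal axis) of the 20 shared arms (red diamonds) and their tested hairpin-specific opposite arms (open blue circles), joined by grey lines, with miR-101-3p and miR-128-3p in bold. The diamond lies left of every circle in 13 of the 20, and the circles farthest from 0 are fitted values of rare arms that depend on the prior count of the fit.

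The profiles nearest to each arm over the 6 libraries were found by the mean absolute gap of log2(CPM + 1) after each mean was subtracted, among the other 390 miRNAs with at least 10 CPM on average. Nearest to miR-101-3p were miR-107 (gap 0.080), miR-149-5p (0.099) and miR-425-5p (0.112), and not its own 5p arms. For miR-101-5p they were miR-92a-1-5p (0.174), miR-1277-5p (0.220) and miR-424-3p (0.221), and for miR-101-2-5p they were miR-29b-2-5p (0.194), miR-1257 (0.197) and let-7f-2-3p (0.206). Nearest to miR-128-3p were miR-629-5p (0.053), let-7e-5p (0.056) and miR-191-5p (0.057), and to miR-128-1-5p miR-339-3p (0.073), miR-625-3p (0.117) and miR-3173-5p (0.117). No arm of either family was among the 3 nearest profiles of another. The median gap to all 390 was 0.335 for miR-128-3p and 0.732 for miR-101-2-5p, the lowest and highest of the 5 arms.

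By its seed, miR-128-3p has 1 further listed relative, miR-216a-3p, which carries the same bases 2 to 8. miR-216a-3p had 0 counts in all 3 ΔTUT4/7 libraries and 1, 7 and 3 counts in WT replicates 1, 2 and 3, and its highest count kept it out of the test. No other listed miRNA shares a seed with any of the 5 arms.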

How the data were processed

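Small RNA of 3 ΔTUT4/7 and 3 WT HEK 293T cultures was sequenced by the authors with the QIAseq miRNA Library Kit. The authors cut reads to 18 nt before aligning them with Bowtie 1.0.0 to hg38. The deposited values are estimated counts per mature miRNA of miRBase, which the authors obtained from the expectation-maximization model of Partek Flow 10.0.22 and wrote as whole numbers. The authors' own comparison (p-values, FDR, ratios, fold changes, means) was not used.

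Libraries were grouped by their labels. CPM was taken over the total miRNA count. A miRNA entered the test if any library had more than 7 counts. The quasi-likelihood test of edgeR 4.0.16 (R 4.3.3) was run with normalization factors of 1 and Benjamini-Hochberg adjustment over 826 miRNAs. The common dispersion was 0.0358. The fit of arm pairs held 231 pairs, with library, arm and arm by strain as terms, and copies of the same arm (14 pairs) were added after the data were seen. Both fits were tested on simulated data. Ratios were tested with an exact permutation test in scipy 1.17.1. The p-values set differences between the strains against the spread between these libraries, and do not cover variation between cell stocks.

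RefSeq gave the sequences, and GENCODE release 44 the host genes. The named miRNAs are the members, the 3 nearest profiles of each, miRNAs with a member's seed or within 10 kb of its hairpins, and shared arms lying outside their specific arms by more than 1 (log2). Members and lists were chosen with earlier results of these data known. Alternatives were TMM and RLE factors, DESeq2 1.42.0, totals without let-7 and miR-98, limma 3.58.1 on log2(CPM + 1) or on log2 ratios (0.5 added to each count), other filters, the replicate block and each library left out.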

Additional observations from a re-analysis of the deposited data

How the results depend on the processing

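Of 196 values under alternative settings, 175 kept their direction and their side of the threshold or stayed near their value. The miR-101-5p call fell under the 2-fold limit with RLE factors (log2 fold change 0.98) and with limma on log2(CPM + 1) (0.94), and with single libraries left out it ranged from 0.69 to 1.38. The direction of miR-128-3p turned with totals without let-7 and miR-98 (log2 fold change 0.0217). The same totals gave mean levels in ΔTUT4/7 of 17.3 CPM for miR-101-3p, 16.7 for miR-101-5p, 31.0 for miR-101-2-5p, 5162 for miR-128-3p and 63.8 for miR-128-1-5p, and of 5085 CPM for miR-128-3p in WT. These totals also brought miR-101-3p (0.68, adjusted p = 0.0303) and miR-128-1-5p (0.67, adjusted p = 0.0197) under an adjusted p of 0.05 in edgeR, still under the 2-fold limit. The call of miR-101-2-5p was kept in all settings.

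The difference of miR-101-3p from miR-101-5p ranged from -1.004 to -0.29 with single libraries left out, and that from miR-101-2-5p from -1.36 to -0.69. The count of called arm pairs, 43 of 231, ranged from 16 to 64 with single libraries left out. It was 29 with limma on log2 ratios and fell to 3 when the replicate block was added to limma. The called pairs of copies, 9 of 14, ranged from 6 to 10 with single libraries left out. They were 7 with limma on log2 ratios and 4 with limma and the replicate block. For the arms themselves the replicate block gave log2 fold changes of 1.47 for miR-101-2-5p, 1.05 for miR-101-5p, 0.46 for miR-101-3p, 0.44 for miR-128-1-5p and -0.20 for miR-128-3p and changed no call. The deviations of same-numbered libraries correlated at -0.170, -0.162 and -0.251 over 391 miRNAs, and gave no sign that the replicate numbers pair the libraries. Those of differently numbered libraries correlated at -0.099 to 0.195. Each deviation was taken from a mean of 3 libraries, which ties these values together, so they cannot settle the pairing. Over all tested arms, 14 of 20 shared arms had at least 2 specific arms, and 4 lay between them. With arms of at least 10 CPM on average, only 7 of 14 had at least 2, and 0 lay between them. A shared arm with 1 specific arm cannot lie between. The cause of the other changes was not tested. Counting error was largest for the miR-101 arms, which had the lowest counts.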
